A study of Mus musculus with 12 samples.

Results

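Cytosolic ribosomal protein genes and their paralogs were examined on mouse arrays of wild-type (WT) and telomerase-deficient Terc-/- (KO) embryonic stem (ES) cells. The members are the probe sets that carry a single gene symbol made of Rpl or Rps and a digit, with the Rps6k kinases left out. They number 103 probe sets for 48 genes, out of 45037 probe sets tested and 18193 genes with a symbol, and a probe set is a group of short probes against the transcripts of a gene. Of the 103, 91 read 40 common ribosomal genes, 20 of the large and 20 of the small subunit. Another 10 read 6 paralogs, 1 reads the pseudogene-named Rps15a-ps6, and 1 reads Rps19bp1, which encodes a protein that binds Rps19 and is no ribosomal protein. A further 33 common ribosomal genes have no probe set of their own.

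The 12 arrays fall into 6 groups of 2. WT cells were set against KO cells before differentiation (day 0) and on days 8 and 15 of differentiation, in which embryoid bodies formed in hanging drops without LIF and were then plated. All lines are from C57BL/6 mice, and KO lines of day 0 are labelled G3/4. The paper calls the KO cells of its arrays G4, yet it lists F35 as a G3 and A49 as a G4 line. The 2 KO arrays of day 0 may therefore also differ in generation, and line and generation cannot be told apart there. The day 0 arrays hold the WT lines N12 and N33 at passage 12 and the KO lines F35 and A49 at passage 11, while no source used here names the lines of the later arrays. The titles call the later replicates biological, but nothing says whether they came from separate lines or cultures. Their p-values measure only the spread between these samples, part of which may be technical.

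A ribosome holds 1 copy of most of its proteins, and the common genes for them are among the most strongly expressed in any growing cell. Their mRNAs begin with a run of pyrimidines, the 5′ terminal oligopyrimidine tract, through which mTOR signaling controls their translation. Some of these genes have a paralog whose protein can take the same place in the ribosome or has another task, and several paralogs are known for expression in a few tissues. Rpl39l, the paralog of Rpl39, is known from the testis, Rpl3l, the paralog of Rpl3, from striated muscle, Rpl22l1 can stand in for Rpl22, and Rps27l is a target of p53.

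The sequences around annotated starts are shown because pyrimidine runs mark the transcripts of common ribosomal genes, for paralogs and common genes that the results turn on. Each window holds 15 bases before and 15 bases from the annotated start on, 5′ to 3′ on the strand of the gene, from RefSeq on GRCm38.p6. The longest run of C or T is in capitals.
Rpl39l, chr16:10170213-10170242, plus strand: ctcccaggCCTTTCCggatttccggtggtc
Rpl39, chrX:37085208-37085237, minus strand: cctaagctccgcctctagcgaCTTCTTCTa
Rps27l, chr9:66946071-66946100, plus strand: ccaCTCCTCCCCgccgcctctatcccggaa
Rps27, chr3:90213634-90213663, minus strand: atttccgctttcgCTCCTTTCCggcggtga
Rpl22l1, chr3:28805493-28805522, plus strand: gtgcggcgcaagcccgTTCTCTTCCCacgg
Rpl22, chr4:152325711-152325740, plus strand: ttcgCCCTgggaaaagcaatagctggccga
Rpl7l1, chr17:46782642-46782671, minus strand: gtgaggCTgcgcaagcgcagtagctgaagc
Rpl14, chr9:120571502-120571531, plus strand: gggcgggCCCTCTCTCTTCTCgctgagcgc
Rps24, chr14:24490663-24490692, plus strand: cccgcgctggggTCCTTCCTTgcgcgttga
The run was 14 bases long in Rpl14, 10 in Rpl22l1, 9 in Rps27, Rps27l and Rps24, 8 in Rpl39, 7 in Rpl39l, 4 in Rpl22 and 2 in Rpl7l1. Rps27l and Rps24 have a second annotated start with a run of 4 and Rpl22 one with a run of 5. The runs of Rps27 and Rps27l were of equal length and those of Rpl39 and Rpl39l differed by 1 base, while Rpl22l1 had a longer run than Rpl22. The runs of Rpl39l, Rps27l, Rpl22 and Rpl7l1 shown here lie wholly before the annotated start, and so outside the annotated transcript. Those of Rpl39, Rps27, Rpl22l1, Rpl14 and Rps24 cross the start or lie after it. Starts were kept for 41 of the 48 member genes. Any member start on a certain chromosome was left out, a filter that was not put on the set of all starts. A run of at least 8 bases lay in 39% of 41 starts of 35 common genes, in 28.6% of 7 starts of 5 paralogs and in 12% of all 32851 starts, read on the strand of the gene. A run in the window is a description of these letters and not of how a transcript is translated.

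The arrays gave relative intensities and have no read depth, so their number limits the precision. The 4 day 0 arrays had median intensities of 114 to 117 and the 8 later arrays of 50.6 to 53.1, so genotypes were compared within a day. Day 0 was set beside later days in 2 places, as an interaction of genotype and day and as a description of the _x_at probe sets. The 3′ to 5′ intensity ratio of Gapdh was 1.06 to 1.13 at day 0 and 1.63 to 2.01 later. WT day 8 replicate 2 stood apart, with a summed intensity of 26250 over 10 fibroblast and connective tissue markers against 3365 to 6277 on the other day 8 arrays. Its summed erythroid markers reached 1472 against at most 242.8. All 10 pluripotency markers were measured at day 0, with summed intensities of 63890 to 67750. The summed fibroblast and connective tissue markers at day 0 were 3050 and 5252 in WT cells, 5538 in line F35 and 8550 in line A49, with 10 of 10 log2 differences positive, a median of 0.818 and none called by limma (2 at an unadjusted p under 0.05). The summed cardiac and smooth muscle markers were 5220 and 5194 in WT cells, 6279 in F35 and 9193 in A49.

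Among the paralogs, Rpl39l differed most between genotypes at days 8 and 15. At day 0 the WT arrays read 507.3 and 505 and the KO arrays 613.5 (line F35) and 2094 (line A49). At day 8 the WT arrays read 142.5 and 100.3 and the KO arrays 849.9 and 974.6. At day 15 the WT arrays read 50.54 and 103.1 and the KO arrays 563.8 and 655.4. Both KO arrays lay above both WT arrays on every day, as on 30.8% of all probe sets at day 15. At day 0 line A49 alone was far above the rest. A49 was also the highest day 0 array in the fibroblast and the cardiac and smooth muscle markers given above, and their part in its Rpl39l value was not tested. The log2 difference (KO minus WT) was 1.16 ± 0.511 (SE, adjusted p = 0.578) at day 0, 2.93 ± 0.511 (adjusted p = 0.0374) at day 8 and 3.07 ± 0.511 (adjusted p = 0.00554) at day 15, by limma on the log2 scale. Within its own arrays Rpl39l stood at the percentiles 66.5 and 56.4 of all probe sets in WT cells at days 8 and 15 and at 92.8 and 89.8 in KO cells. Averaged over the 3 days the log2 difference was 2.39 (adjusted p = 0.00221), where 9.67% of all probe sets were called. Without line F35 the day 0 difference was 2.05 (adjusted p = 0.0309) and without line A49 it was 0.278. The day 8 call was lost on leaving out either WT day 0, either WT day 8 or either KO day 8 array, where the log2 difference stayed between 2.63 and 3.18 over all settings tried.

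At day 15, 4 of the 6 paralogs rose in KO cells and none fell, a share of 66.7% beside 12.9% of all probe sets called in either direction and 6.45% called higher. By mean intensity 2 of the 6 were over 4000 and 3 from 200 to 4000, and of all probe sets in these ranges 19% and 21.5% were called at day 15. At day 8, 1 of 6 rose, Rpl39l, where 1.13% of all probe sets were called. At day 0 none of the 6 was called by limma and 1, Rpl39l, had an unadjusted p under 0.05, where 0.0488% of all probe sets were called. The median log2 difference of the 6 was 0.058, 0.113 and 0.386 at days 0, 8 and 15, against 0.035, 0.026 and 0.036 over all probe sets.

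**Figure D1:**
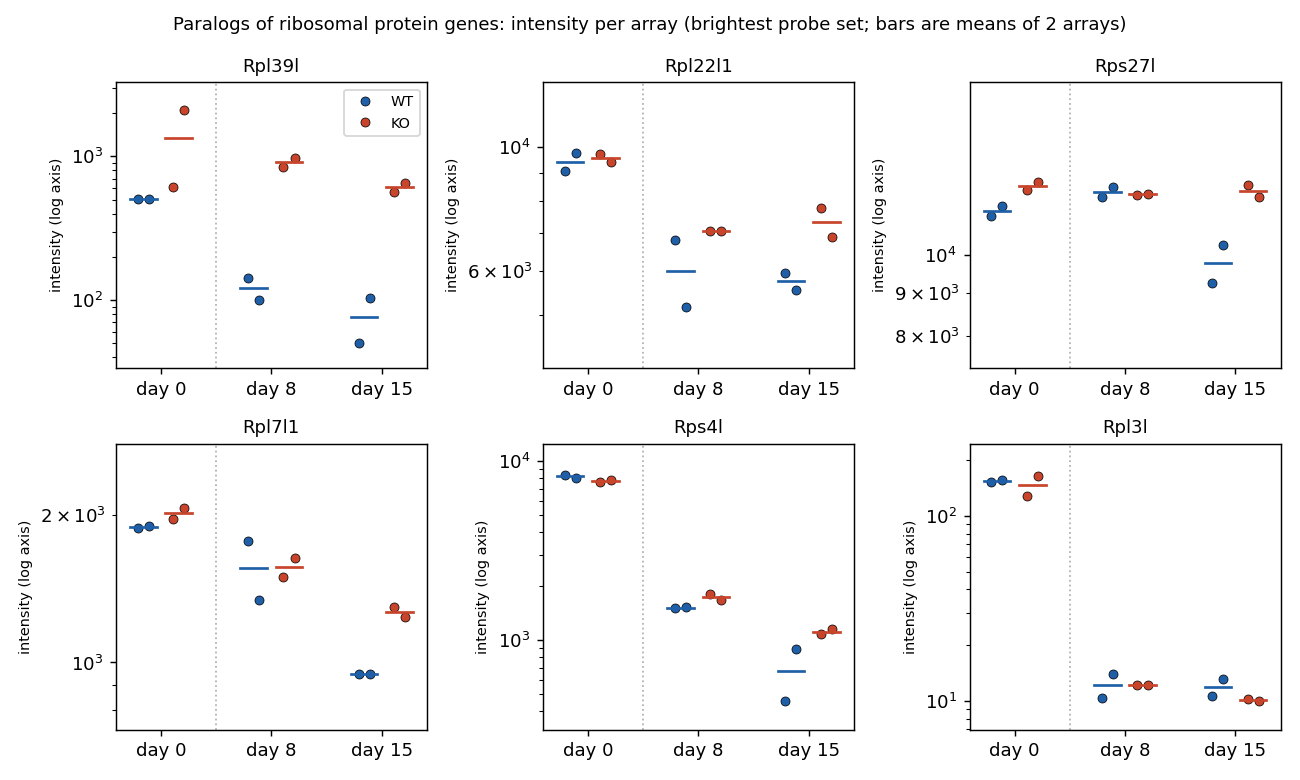
Intensity of the 6 paralogs on each of the 12 arrays (log axis, a separate scale for each gene), with WT in blue and KO in red. Points are single arrays and bars the mean of 2 arrays. The dotted line separates day 0, which may have been scaled apart. The KO arrays of Rpl39l at day 15 read 563.8 and 655.4 and the WT arrays 50.54 and 103.1, while Rpl3l shows no such gap.

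Rps27l, Rpl7l1 and Rps4l also rose in KO cells at day 15, each by less than Rpl39l. Rps27l read 9269 and 10300 in WT and 12160 and 11760 in KO cells, a log2 difference of 0.29 ± 0.064 (SE, adjusted p = 0.0129). Rpl7l1, the paralog of Rpl7, read 948.1 and 947.2 in WT and 1299 and 1238 in KO cells, a difference of 0.42 ± 0.124 (adjusted p = 0.0462). The other probe sets of Rpl7l1 gave 0.30 (adjusted p = 0.175) and 0.19 (adjusted p = 0.405) and did not pass. Rps4l, a relative of Rps4x, read 457.2 and 889.8 in WT and 1080 and 1152 in KO cells, a difference of 0.81 ± 0.228 (adjusted p = 0.0442). Both KO arrays lay above both WT arrays for each of these 3 genes, as on 30.8% of all probe sets. WT replicate 1 was the lowest array of Rps4l and of Rps27l. Rpl22l1 read 5929 and 5546 in WT and 7768 and 6900 in KO cells, a difference of 0.35 ± 0.113 that did not pass (adjusted p = 0.0649). Rpl3l read 10.57 and 13.16 in WT and 10.19 and 10.03 in KO cells, a difference of -0.22 ± 0.173 (adjusted p = 0.475). Rpl3l lay at the percentile 12.3 or lower of its arrays at day 15 in both genotypes. The calls of Rpl7l1 and Rps4l were lost under 16 and 14 of 23 alternatives and that of Rps27l under 5 of 24. Leaving out WT day 15 replicate 1 or KO day 15 replicate 1 left 1 of the 4 calls, and leaving out any day 0 array, either KO day 8 array or KO day 15 replicate 2 left 2.

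The arrays of days 8 and 15 had like median intensities (50.6 to 53.1), so the change between these days was read within each genotype. In WT cells 3 of 6 paralogs fell, where 16% of all probe sets changed and 9.16% fell. Rps4l fell by 1.25 (adjusted p = 0.0051), Rpl7l1 by 0.71 (adjusted p = 0.00332) and Rps27l by 0.29 (adjusted p = 0.0116). Rpl39l had a change of -0.73 ± 0.511 that did not pass (adjusted p = 0.419). In KO cells none of the 6 passed, where 0.02% of all probe sets did, at a median log2 change of -0.288 against -0.496 in WT cells. Rps4l gave -0.65 (adjusted p = 0.357), Rpl39l -0.58 (adjusted p = 0.748), Rpl7l1 -0.30 (adjusted p = 0.406) and Rps27l 0.01 (adjusted p = 0.964) in KO cells, and 2 of the 6 had an unadjusted p under 0.05. The same change over time was compared between genotypes as an interaction, and no paralog passed it (2 at an unadjusted p under 0.05), with 0.422% of all probe sets called.

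The common partners of these paralogs did not pass the test at any day. Rpl39 itself was read by 1 probe set, at 84.42 and 88.33 in WT and 91.64 and 88.35 in KO cells at day 15, a log2 difference of 0.06 ± 0.134 (adjusted p = 0.84). Rps27 read 240.8 and 281.7 in WT and 254.7 and 268.7 in KO cells, a difference of 0.01 ± 0.143 (adjusted p = 0.985). The groups overlapped or nearly met for both genes. Rpl22 gave 0.06 (adjusted p = 0.573), Rpl7 0.16 (adjusted p = 0.267) and Rps4x 0.03 (adjusted p = 0.835). The probe set of Rpl39 stood at the percentiles 49.9 to 62.1 of its arrays and that of Rps27 at 72.1 to 79.4, while most probe sets read for common genes were far brighter, so their values give little information on these transcripts. The difference between partner and paralog was not tested for any pair. Rpl3, Rpl10 and Rpl36a were not analysed, as no probe set carries their symbol alone.

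As a group the common ribosomal genes had small differences on the probe sets read here, most of which lie near the top of the intensity scale. A gene was read from the brightest of its probe sets that do not end in _x_at, the suffix for probe sets whose probes may match other transcripts, and 35 of the 40 genes have such a probe set. Its mean intensity was at least 4000 for 24 of the 35, from 200 to 4000 for 8 and under 200 for 3, where the highest intensity of any probe set on an array was 20085 to 22080. A small difference on so bright a probe set does not show that the transcript level was the same. At day 0, 0 of 35 passed by limma (1 at an unadjusted p under 0.05), and at day 8, 0 of 35 passed (3 unadjusted). At day 15, 4 rose and none fell, 11.4% beside 12.9% of all probe sets called in either direction and 6.45% called higher. Their median log2 differences were 0.009, 0.069 and 0.037 at the 3 days, against 0.035, 0.026 and 0.036 over all probe sets. In the large subunit 2 of 18 genes rose at day 15 and in the small subunit 2 of 17. The summed intensity of the 35 genes was 325500 and 333800 in WT and 336800 and 334800 in KO cells at day 15.

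The 4 common genes that rose were Rpl14, Rpl12, Rps24 and Rps25, each read from a probe set of moderate signal. Rpl14, Rpl12 and Rps25 have no other probe set among the members, while Rps24 has 6. Rpl14, of the large subunit, read 300.1 and 256.1 in WT and 538.6 and 497.1 in KO cells at day 15, a log2 difference of 0.90 ± 0.152 (SE, adjusted p = 0.00344). Rpl12, which helps to form the stalk of the large subunit, read 259.4 and 264.1 in WT and 406.3 and 445.7 in KO cells, a difference of 0.70 ± 0.173 (adjusted p = 0.0224). Rps25, of the small subunit, read 1010 and 1099 in WT and 1367 and 1546 in KO cells, a difference of 0.47 ± 0.122 (adjusted p = 0.0293). The KO arrays lay above the WT arrays without overlap in each, as on 30.8% of all probe sets. Rps24, of the small subunit, read 277.8 and 306.2 in WT and 542.9 and 533.9 in KO cells, a difference of 0.88 ± 0.203 (adjusted p = 0.0163). Its brighter probe set of the _x_at type read 14670 and 14700 in WT and 15150 and 14920 in KO cells, a difference of 0.03 (adjusted p = 0.742), so the call for Rps24 ended with that probe set. Its other probe set that does not end in _x_at read 31.29 and 30.73 against 31.15 and 33.07, a difference of 0.05 (adjusted p = 0.86). Leaving out WT day 15 replicate 1, KO day 15 replicate 1 or KO day 15 replicate 2 left 1 of the 4 calls, and Rpl14 kept its call on leaving out any array.

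**Figure D2:**
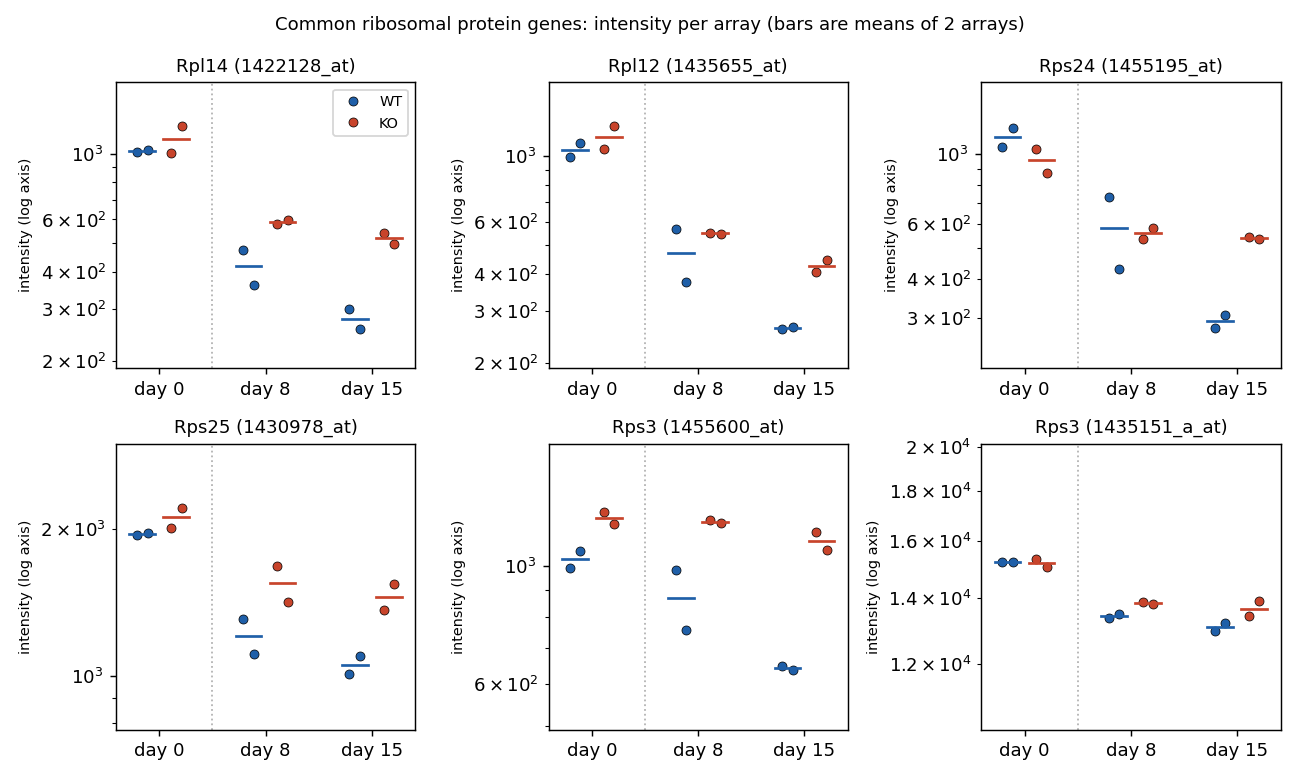
Intensity on each of the 12 arrays (log axis, a separate scale for each panel) for probe sets of 5 common ribosomal genes, with WT in blue, KO in red and bars for the mean of 2 arrays; the dotted line separates day 0. The lower middle panel shows the Rps3 probe set at 648.1 and 636.2 in WT and 1160 and 1071 in KO cells at day 15, and the lower right panel shows the brighter Rps3 probe set, with 12950 and 13220 against 13410 and 13910.

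Other common genes sat at the ends of the range without passing. At day 15 the lowest log2 differences were those of Rps7 at -0.07 (adjusted p = 0.581), Rps3a1 at -0.05 (adjusted p = 0.681) and Rpl27 at -0.04 (adjusted p = 0.774). At day 8 the highest were Rpl14 at 0.51 (adjusted p = 0.148), Rpl27a at 0.50 (adjusted p = 0.245) and Rps25 at 0.36 (adjusted p = 0.205), and the lowest were Rps3a1 at -0.08 (adjusted p = 0.633), Rpl6 at -0.07 (adjusted p = 0.65) and Rpl7 at -0.05 (adjusted p = 0.832). At day 0 Rps20 read 191.5 and 173.5 in WT and 248.1 and 304.7 in KO cells, a difference of 0.59 (adjusted p = 0.298). The next at day 0 were Rpl12 at 0.14 (adjusted p = 0.886) and Rpl14 at 0.12 (adjusted p = 0.887), and the lowest were Rpl27a at -0.33 (adjusted p = 0.686), Rps24 at -0.25 (adjusted p = 0.805) and Rpl41 at -0.18 (adjusted p = 0.89). The day 8 values move with WT day 8 replicate 2. When WT day 8 replicate 1 was left out, so that replicate 2 alone stood for WT cells, 4 common genes were called at day 8. When replicate 2 was left out 1 was called, Rpl27a at 0.81 (adjusted p = 0.0438).

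Probe sets of the same common gene gave different readings, by their brightness. The common probe sets that do not end in _x_at were divided at mean intensities of 200 and 4000, limits chosen after the values were seen. Of 30 over 4000, 1 rose at day 15 (3.33%), at a median log2 difference of 0.028. Of all probe sets of that brightness 19% were called in either direction, and 113 of 717 rose. Of 11 between 200 and 4000, 5 rose (45.5%), at a median of 0.483. Of all such probe sets 21.5% were called in either direction, and 1570 of 12460 rose. Of 12 under 200, none was called, at a median of 0.055, where 9.38% of all such probe sets were called. The median SD between replicates was 0.046 on the log2 scale in the brightest class and 0.163 in the middle class.

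Rps3, a small-subunit protein that also takes part in DNA repair, shows both readings. Its brightest probe set read 12950 and 13220 in WT and 13410 and 13910 in KO cells at day 15, a log2 difference of 0.06 ± 0.053 (adjusted p = 0.517). A second probe set read 648.1 and 636.2 in WT and 1160 and 1071 in KO cells, a difference of 0.80 ± 0.125 (adjusted p = 0.00236). A dim probe set of Rps3 read 36.11 and 36.29 in WT and 29.27 and 23.25 in KO cells, a difference of -0.47 (adjusted p = 0.0536). The KO arrays were thus above, above and below the WT arrays in the 3 probe sets. Rpl13a, of the large subunit, read 11730 and 12000 in WT and 11560 and 11680 in KO cells on its brightest probe set, a difference of -0.03 (adjusted p = 0.787), and 3202 and 3366 against 4564 and 4049 on another, a difference of 0.39 (adjusted p = 0.0438). The part of probe brightness and of probe position in these differences was not tested.

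**Figure D3:**
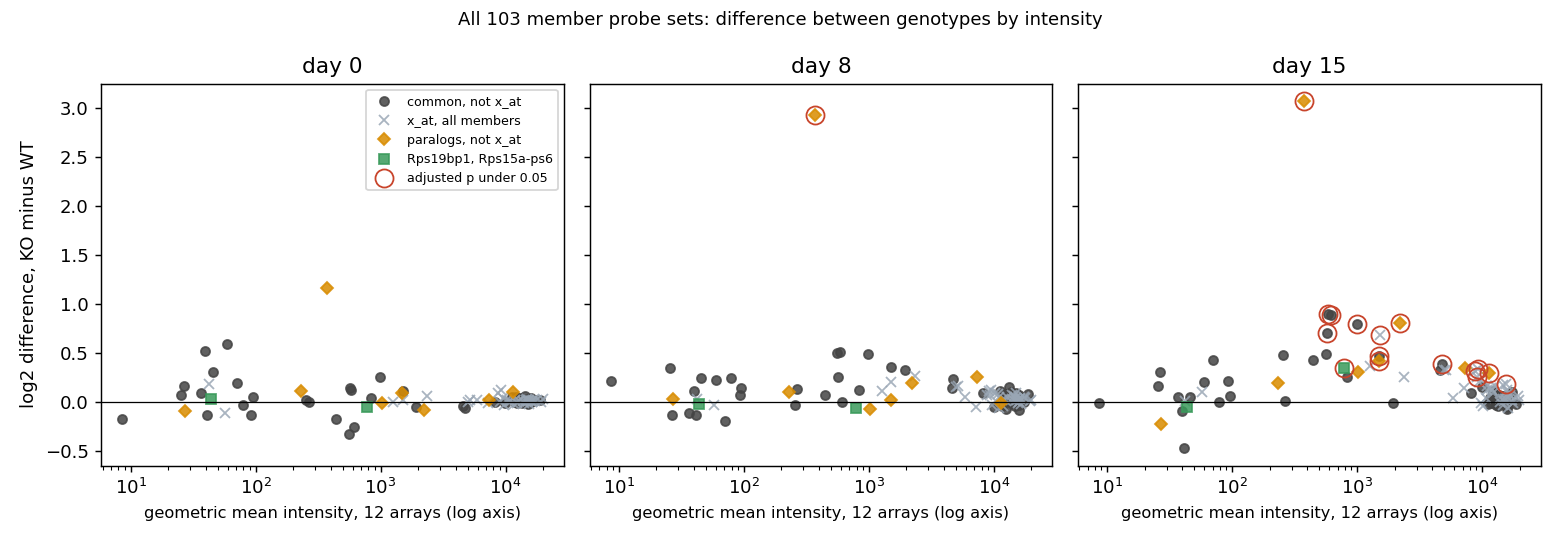
Log2 difference (KO minus WT) of all 103 member probe sets against their geometric mean intensity over 12 arrays (log axis) at days 0, 8 and 15, with common genes in dark circles, probe sets of the _x_at type as crosses, paralogs as orange diamonds and the other members as green squares; red rings mark an adjusted p under 0.05. At day 15 16 probe sets are ringed, all above 0, and most of the brightest lie near 0.

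The 40 probe sets of the _x_at type were treated apart. At day 15, 5 of them rose and none fell, 12.5% beside 12.9% of all probe sets called in either direction and 6.45% called higher. They were 2 of Rps27l, at 0.34 (adjusted p = 0.0169) and 0.31 (adjusted p = 0.0124), and 1 each of Rpl37a, Rps2 and Rpl13a, at 0.68 (adjusted p = 0.00249), 0.18 (adjusted p = 0.0413) and 0.25 (adjusted p = 0.0427). All 3 Rps27l probe sets therefore gave a like difference. At days 0 and 8 none was called. The median log2 difference was 0.007, 0.044 and 0.087 at the 3 days. On 4 of the 40 the intensities at days 8 and 15 lay over 4-fold below those of day 0, and 2 of these over 10-fold, while 4 others were higher later. A dim probe set of Rps18 (mean 138.4 at day 0 and 23.36 later) is among those that fell. The share of all probe sets that fell so far was not counted, and the median intensity of the arrays was also lower later. A probe set of Rpl41, for a very short large-subunit protein, had a mean of 10640 ± 85.8 on the day 0 arrays (SD, n = 4) against 446.2 ± 87.9 on the 8 others (SD, n = 8). A probe set of Rpl37a had 8233 ± 189 and 664.2 ± 149 in the same order. Other probe sets of both genes did not fall so far. The brightest probe set of Rpl37a read 19290 and 19210 in WT cells at day 0 and 18960 and 19150 at day 15. The brightest of Rpl41 had 16860 ± 90.9 on the day 0 arrays and 20740 ± 529 on the others (SD). The Rpl41 probe set that does not end in _x_at read 744 and 908 in WT cells at day 0 and 233.3 and 227.8 at day 15.

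Between days 8 and 15, 4 of the 35 common genes fell in WT cells and none rose on the probe set read. The share is 11.4%, with 16% of all probe sets called and 9.16% lower. Rps24 fell by 0.94 (adjusted p = 0.00994), Rpl41 by 0.84 (adjusted p = 0.0275), Rpl12 by 0.82 (adjusted p = 0.00885) and Rpl14 by 0.58 (adjusted p = 0.0251). Of all 11 common probe sets of 200 to 4000 that do not end in _x_at, 6 fell and 1 rose (63.6%, with 30.2% of all probe sets of that brightness called). The one that rose was a dimmer probe set of Rpl22, by 0.57. In KO cells 0 of 35 changed by limma. The median log2 change was -0.033 in WT and -0.016 in KO cells. No common gene passed the interaction of genotype and day between days 8 and 15, or between days 0 and 15, where 4.38% of all probe sets were called. Without WT day 8 replicate 1 the number of common genes called in WT cells was 9 and without WT day 15 replicate 1 it was 1. For Rps24 the change was 0.02 (adjusted p = 0.853) on its brightest probe set of any kind. That of Rpl41 read 21090 and 20450 in WT cells at day 8 and 20550 and 19770 at day 15, a change of -0.04. Another _x_at probe set of Rpl41 fell by 0.49, and the call of Rpl41 was lost under 7 of 23 alternatives.

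Rps19bp1 read 502.7 and 507.6 in WT and 661.3 and 621 in KO cells at day 15, a log2 difference of 0.34 ± 0.1 (SE, adjusted p = 0.0441). Rps15a-ps6 gave -0.05 (adjusted p = 0.887). The groups of Rps19bp1 did not overlap, and its call was lost under 14 of 23 alternatives. Of the 103 member probe sets, 61 had both KO arrays above both WT arrays at day 15 and 8 had both below. Over all probe sets the shares were 30.8% above and 23.4% below. By a ratio of linear group means of at least 1.8, the fold used in the study and no test, 1 member probe set differed at day 0 and 1 at day 8 (Rpl39l on both days), and 3 at day 15 (Rpl39l, Rpl14 and Rps24), all higher in KO cells. By this rule 1.13%, 2.28% and 6.28% of all probe sets differed.

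Genes of the wider pathway of ribosome production were higher in KO cells at day 15. Of 49 measured ribosome biogenesis genes, 30 rose and 1, Ltv1, fell by 0.34 (adjusted p = 0.0484), 63.3% beside 12.9% of all probe sets, at a median log2 difference of 0.629. The examples are Nhp2, a protein of the H/ACA particles that modify rRNA, at 1.11 ± 0.125 (SE, adjusted p = 0.000425), Dkc1, the pseudouridine synthase of the same particles, at 1.04 ± 0.160 (adjusted p = 0.00221), Polr1e, a subunit of RNA polymerase I, at 1.02 ± 0.155 (adjusted p = 0.00199) and Ddx21, an RNA helicase of the nucleolus, at 1.00 ± 0.134 (adjusted p = 0.00103). Dkc1 and Nhp2 are also known as parts of telomerase. The mean intensity of Nhp2 was 2270 ± 389 in WT cells (SD, n = 2) against 4860 ± 303 in KO cells (SD, n = 2). At days 0 and 8 no gene of this list was called by limma. Between days 8 and 15, 42 of the 49 fell in WT cells, at a median of -0.878 (85.7%, where 16% of all probe sets changed and 9.16% fell). In KO cells 0 of 49 passed by limma, where 0.02% of all probe sets did, although all 49 changes were negative, at a median of -0.323, and 24 had an unadjusted p under 0.05. The interaction of genotype and day between days 8 and 15 called 0 of 49, with 0.422% of all probe sets called. Its median was 0.565, and 28 had an unadjusted p under 0.05. Between days 0 and 15 the interaction called 11 of 49, all positive (22.4%, with 4.38% of all probe sets called), at a median of 0.593. The number called at day 15 was 10 without WT day 15 replicate 1, 8 without KO day 15 replicate 1 and 14 without KO day 15 replicate 2.

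Of 26 translation factors 8 rose at day 15 and none fell (30.8%, with 12.9% of all probe sets called and 6.45% higher), at a median of 0.193. Eif2s2, a subunit of the initiation factor that brings the initiator tRNA, differed by 0.58 (adjusted p = 0.0117), and Eif4a1, the helicase of cap-dependent initiation, by 0.38 (adjusted p = 0.00819). Of 76 mitochondrial ribosomal protein genes, kept apart from the cytosolic genes, 9 rose and 3 fell, at a median of 0.204, and this share of 15.8% is near the 12.9% of all probe sets. Of 12 genes of the Myc family and the mTOR pathway 3 rose (25%, beside the same 12.9% called and 6.45% higher). These were Mycl at 1.02 (adjusted p = 0.0116), Deptor at 0.89 (adjusted p = 0.00806) and Mycn at 0.56 (adjusted p = 0.0112). Rplp0, Rplp2, Rpsa and Fau, ribosomal protein genes outside the name rule, gave 0.21 (adjusted p = 0.0567), 0.03 (adjusted p = 0.829), 0.15 (adjusted p = 0.109) and -0.06 (adjusted p = 0.603).

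Markers of cell types moved along with these values at day 15. Of 10 pluripotency markers 9 rose in KO cells, among them Pou5f1 by 3.58 (adjusted p = 0.000895) and Nanog by 3.10 (adjusted p = 0.000945). Their summed intensity was 2578 and 7805 in WT and 19610 and 18390 in KO cells. The summed fibroblast and connective tissue markers, 7 of 10 lower in KO cells, were 77990 and 58530 in WT and 10550 and 15400 in KO cells, and the summed erythroid markers, 3 of 6 lower, were 2354 and 1744 against 202.6 and 183.3. Of 7 endoderm markers 5 were lower and of 7 neural markers 4 were higher, while none of 6 cardiac and smooth muscle markers passed. Over all probe sets 12.9% were called at day 15 and 6.45% were called higher. With so few cardiac and smooth muscle markers, no call does not show that they were unchanged. The part of the cell types present in the differences of the ribosomal genes and paralogs was not tested. In bulk samples fewer cells of a type and less RNA per cell cannot be told apart.

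**Figure D4:**
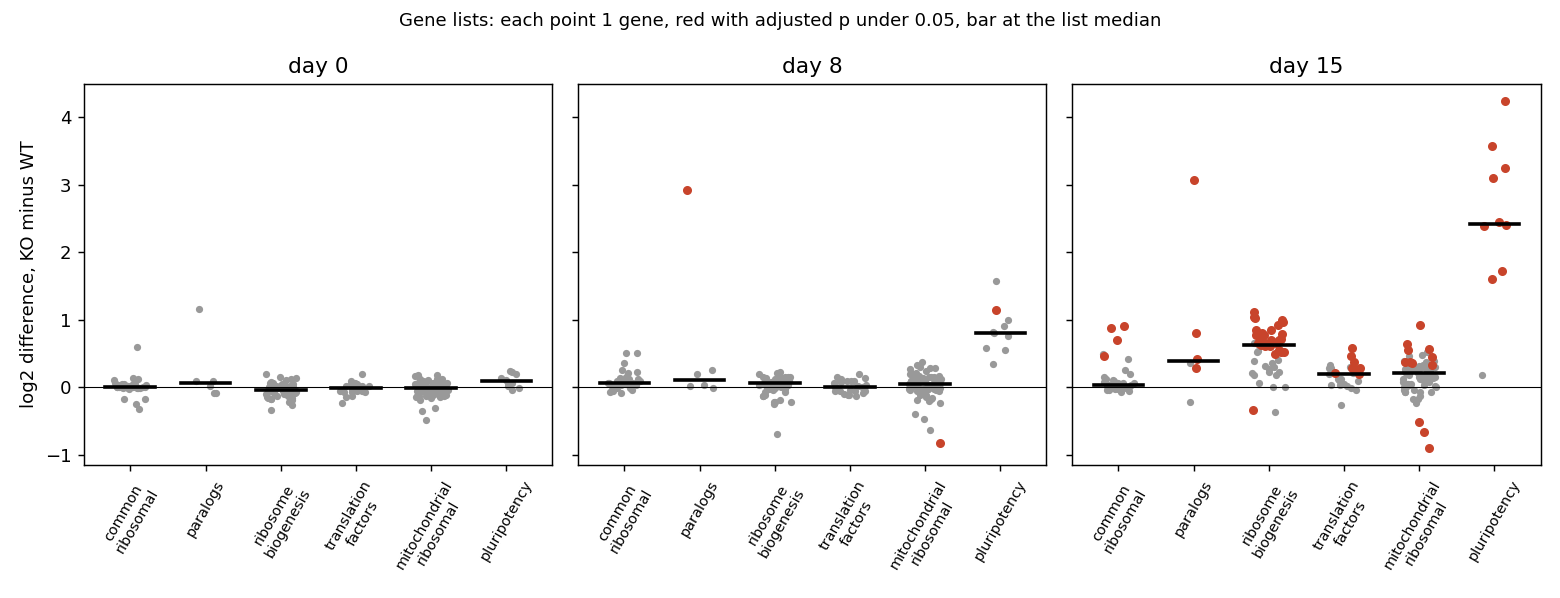
Log2 difference (KO minus WT) of every measured gene of 6 lists at days 0, 8 and 15, each point a gene, red where the adjusted p is under 0.05 and black bars at the list median. At day 15 the median of the 35 common ribosomal genes is 0.037, against 0.386 for the 6 paralogs, 0.629 for ribosome biogenesis and 2.421 for the pluripotency markers.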

How the data were processed

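The authors deposited linear intensities of 12 Affymetrix 430 2.0 mouse arrays, a single value for each probe set and array. The submitters' processing notes name MAS5, without a version or settings, and the paper's methods name CapitalBio software. Day 0 arrays had higher median intensities than the later arrays (114 to 117 against 50.6 to 53.1). Their maxima were not higher (20085 to 20573 against 21368 to 22080). They may have been scaled apart, and the source of this difference was not tested.

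The manufacturer's 64 control probe sets were left out, and 45037 remained. Of these 34945 carry a single gene symbol, 932 several and 9160 none. Values below 1 were raised to 1 before log2. The fit used limma 3.58.1, with statmod 1.5.0, under R 4.3.3: a mean for each of the 6 groups over all 12 arrays, an intensity trend and robust moderation. Two-sided p-values were corrected for 45037 probe sets by the method of Benjamini and Hochberg, and 0.05 was the threshold. A gene was read from its brightest probe set that does not end in _x_at. The fit was checked on simulated data.

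Named genes were every paralog, its common partner, every common gene that passed at a day, the 3 highest and 3 lowest common genes of each day, and up to 4 members of other lists. Further probe sets of Rps3, Rpl13a and the _x_at type were chosen after their values were seen. Members and lists were chosen with earlier results of these data known.

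Alternatives were an offset of 32, 3 other scalings, the brighter probe sets alone, a simpler variance model, a block on replicate number, a fit of the compared arrays alone, the methods' 2-group test, other probe sets of a gene, other folds, and each array left out in turn. Sequences come from RefSeq on GRCm38.p6. Figures used matplotlib 3.10.9 with numpy 2.4.6 and pandas 2.3.3 under Python 3.11.15.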

Additional observations from a re-analysis of the deposited data

Results flagged for a closer look

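A probe set of Rpl37a of the _x_at type differed in its genotype difference between day 15 and day 0, by 0.66 on the log2 scale (adjusted p = 0.036, by limma as an interaction). At day 15 it read 462.1 and 424.8 in WT and 742.5 and 678.6 in KO cells, and at day 0 8297 and 8051 against 8114 and 8470. The call was lost under 12 of 20 alternatives, and day 0 may have been scaled apart from day 15. The brightest Rpl37a probe set gave -0.02 at day 15 (adjusted p = 0.877).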

How the results depend on the processing

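Precision is limited by 2 arrays a group, by intensities near the top of the scale for most common genes, and by probe sets that may match other transcripts. Counts of called genes below follow limma unless said otherwise, and the counts for paralogs and biogenesis genes are later additions, chosen with the values in view; the cause of these shifts was not tested. Under quantile normalization the day 8 median of common genes was 0.037. Centring on the median gave medians of -0.031 (day 0), -0.077 (WT, day 15 against day 8) and 0.065 (day 15 minus day 0). Centring on the brighter probe sets that are not ribosomal gave medians of 0.141 (day 8), 0.069 (day 15), 0.066 (mean of days), 0.013 (WT over time), -0.023 (day 15 minus day 8) and 0.073 (day 15 minus day 0), and Rpl7 at day 8 turned to 0.018. Each of these 3 scalings, and the brighter probe sets alone, called 1 common gene for day 15 minus day 0, where the main value was 0. The brighter probe sets alone called 7 common genes in WT over time. Without trend and robust moderation 2 paralogs were called at day 15. With only the arrays compared, 0 paralogs were called at day 8, 0 common genes, 0 paralogs and 3 biogenesis genes in WT over time, and 3 common genes for day 15 minus day 0. The methods' 2-group test called 0 common genes, 0 paralogs and 0 biogenesis genes at day 15 and 0 paralogs at day 8 after adjustment, and 1, 3 and 9 common genes at days 0, 8 and 15 at an unadjusted p under 0.05. Averaging the probe sets of a gene gave medians of -0.062 (WT over time) and 0.072 (day 15 minus day 0), with Rps24 at 0.025 at day 0 and Rpl27 at 0.143 at day 15. The brightest probe set of any suffix gave Rps24 0.023 at day 0 and 0.021 in WT over time. Probe sets of the _x_at type alone gave the same 2 values for Rps24, 0.329 for Rpl27 at day 15 and medians of 0.031 (day 8) and 0.021 (WT over time). They called 1 common gene and 1 paralog at day 15, 0 paralogs at day 8, 0 common genes for the mean of days, and 1 common gene and 1 paralog in WT over time. A 1.5-fold rule passed 2 member probe sets at day 0 and 7 at day 15, and a 2-fold rule 1 at day 15.

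With each array left out in turn, the common genes called ranged from 0 to 4 (day 8), 1 to 5 (day 15), 1 to 6 (mean of days), 1 to 9 (WT over time), 0 to 2 (day 15 minus day 8) and 0 to 4 (day 15 minus day 0). The paralogs ranged from 0 to 1 (days 0 and 8) and 1 to 4 (day 15), and the biogenesis genes from 0 to 10 (day 8) and 8 to 37 (day 15). Medians of common genes ranged from 0.013 to 0.132 (day 8), -0.051 to -0.003 (WT over time) and -0.012 to 0.045 (day 15 minus day 8). Single genes that turned sign ranged from -0.144 to 0.036 (Rpl7, day 8), -0.163 to 0.004 (Rps3a1, day 8), -0.152 to 0.003 (Rpl6, day 8), -0.025 to 0.272 (Rpl14, day 0) and -0.107 to 0.119 (Rps27, day 15). Of 804 recomputed differences at days 0 and 8 of named members whose difference is not printed above, 55 turned sign, none past the threshold, and 4 were called, all at day 8 without WT day 8 replicate 1: Rpl22l1, Rpl12, Rpl13a and Rps3.

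Replicate numbers did not pair the samples, with correlations of deviations of 0.0111, 0.0442 and -0.0611 at days 0, 8 and 15. With the replicate block 4 common genes, 3 paralogs and 30 biogenesis genes were called at day 15, and 3 common genes in WT over time.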

Other observations

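A further 109 probe sets carry a ribosomal gene symbol beside that of another gene and are no members. At day 15, 7 of them rose in KO cells and none fell, a share of 6.42% that is close to the 6.45% of all probe sets called higher and below the 12.9% called in either direction, at a median log2 difference of 0.073, and at days 0 and 8 none was called by limma.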
